A study of Homo sapiens with 8 samples.

Results

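Aminoacyl-tRNA synthetases are the enzymes that attach each amino acid to its transfer RNA, and exportin-t, encoded by XPOT, carries tRNAs from the nucleus to the cytoplasm. The transcripts of 36 such genes were followed: 19 cytosolic synthetases, 16 mitochondrial synthetases and XPOT. They were chosen by name and matched through the Entrez gene ID, and all 36 were found among the 27936 genes of the tables. Of these, 34 passed the filter on low counts and were tested: 18 cytosolic and 15 mitochondrial synthetases, and XPOT.

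The samples were 8 RNA-seq libraries of HEK293, a human cell line grown from embryonic kidney. By their labels, 4 were TIP60 knock-out (KO), with the genotype HEKg1/C9, and 4 were control, with the genotype HEKg1. TIP60, the product of KAT5, acetylates lysines of histones and other proteins within a chromatin-modifying complex. Each arm held 2 libraries with the guide label sgRNA1 and 2 with sgRNA2, and doxycycline at 1 µg/ml was given for 3 days to all 8 samples, controls included, to induce the guides. GlutaMAX, a glutamine supplement, is given at 2 mM for all 8 samples. What the control guides target and what C9 means is not stated in the labels. The labels do not say whether the replicates were separate cultures, so p-values measure only the spread between these samples, which may be technical.

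Values in the text are counts scaled to library size (CPM, with TMM factors). KAT5 itself was at 18.0 to 20.2 CPM in the KO libraries and at 44.5 to 49.004 CPM in the control libraries. Gene counts summed to 3723992 to 18841774 per library, and control sgRNA1 replicate 2 was the shallowest. Of genes commonly reported in HEK293, NEFM was at 12068 to 13195 CPM in KO and 7543 to 9117 CPM in control libraries, NEFL at 1696 to 1769 and 1229 to 1479.6 CPM, and VIM at 246 to 264 and 285 to 342 CPM, while PAX2 was low, at 0.643 to 1.19 and 0.323 to 1.31 CPM. Marker lists of 5 genes each for other cell types summed to 1.41 to 2.25 against 0.566 to 1.08 CPM for leukocytes and 24.8 to 27.2 against 18.6 to 28.0 CPM for fibroblasts, KO against control. The same sums were 2.91 to 4.21 against 0 to 0.404 CPM for endothelium and 0.234 to 0.594 against 0 to 0.0814 CPM for hepatocytes, where SERPINA1 had no count in any library. The part of these markers in the results was not tested.

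Human cells hold separate nuclear genes for most cytosolic and mitochondrial synthetases, and GARS1 and KARS1 each encode both forms. Several cytosolic enzymes sit in the multi-synthetase complex, held together by the scaffold proteins AIMP1, AIMP2 and EEF1E1. Mitochondria charge their glutamine tRNA by another route, in which EARS2 attaches glutamate and a transamidase then converts it. XPOT binds tRNA together with the GTP-bound form of the small GTPase Ran. Many cytosolic synthetase genes are commonly listed as targets of ATF4, a transcription factor of the integrated stress response, which binds the C/EBP-ATF response element.

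That element is the sequence feature by which members can be compared, so the members that carry it are shown first. Its core was searched as TGATGNAA on both strands of RefSeq promoters (GRCh38.p14), each running from 250 bases before to 50 bases after the start site used in that table. A promoter was found for 31 members, and 7 of these (22.6%) held the core, beside 1003 of all 27305 promoters (3.67%) and 187 of the 11414 promoters of tested genes (1.64%). The core, on either strand, is in capitals with 11 bases on either side, read 5′ to 3′ along the gene.
TARS1: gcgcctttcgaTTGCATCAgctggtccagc
IARS1: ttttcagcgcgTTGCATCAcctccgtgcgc
MARS1: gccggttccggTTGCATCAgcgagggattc
CARS1: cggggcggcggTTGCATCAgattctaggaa
NARS1: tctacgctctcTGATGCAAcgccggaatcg
AARS1: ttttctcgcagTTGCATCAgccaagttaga
YARS2: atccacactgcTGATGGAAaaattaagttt

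These windows lie at chr5:33440956-33440985 (TARS1, plus strand), chr9:92293692-92293721 (IARS1, minus strand), chr12:57488053-57488082 (MARS1, plus strand) and chr11:3057407-3057436 (CARS1, minus strand). The others lie at chr18:57621804-57621833 (NARS1), chr16:70289675-70289704 (AARS1) and chr12:32756076-32756105 (YARS2), all on the minus strand. In IARS1, CARS1, MARS1, TARS1 and NARS1 the core began within 15 bases of the start site, at positions -13, -2, -4, 3 and 15. In AARS1 and YARS2 it began farther upstream, at -187 and -197. YARS2, the mitochondrial enzyme for tyrosine, held the variant TGATGGAA, while the cytosolic genes held TGATGCAA or its reverse complement TTGCATCA. A match describes the letters only and shows no binding.

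Before the KO comparison, levels were set side by side per kilobase of the deposited gene length. In control libraries the cytosolic synthetases other than VARS1 lay between 23.5 ± 2.13 CPM per kb for WARS1 and 126 ± 6.57 CPM per kb for TARS1 (SD, n = 4). IARS1, LARS1 and EPRS1 followed TARS1 at 109 ± 5.18, 107 ± 2.96 and 107 ± 7.80 CPM per kb, and these 3 levels did not differ beyond their spread. The mitochondrial synthetases other than IARS2 lay between 2.77 ± 0.290 CPM per kb for FARS2 and 26.1 ± 1.69 CPM per kb for TARS2. TARS2 and YARS2 (24.2 ± 1.83 CPM per kb) did not differ from WARS1 beyond their spread, and the others had lower means. Of those, EARS2 (up to 20.75 CPM per kb) and AARS2 (up to 20.4) still overlapped WARS1 at its lowest control library (20.3). IARS2, the mitochondrial isoleucine enzyme, stood apart at 106 ± 7.08 CPM per kb, within the spread of its cytosolic counterpart IARS1. XPOT was at 63.6 ± 2.54 CPM per kb.

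The valine enzymes and CARS1 were the exception to these levels. CARS1 had 1 to 6 counts and VARS2 had 0 to 5 counts per library, and neither passed the filter. VARS1 had 2 to 14 counts per library and passed it, with a log2 fold change of -0.64 ± 0.39 (SE) and an adjusted p of 0.158 by edgeR. For VARS2, 22.0% of the exonic bases are shared with GTF2H4 on the same strand, while CARS1 and VARS1 share none on that strand. No level of the enzymes for cysteine in the cytosol, or for valine in either compartment, is drawn from so few counts.

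KO was compared with control over all 8 libraries by edgeR's quasi-likelihood test, the guide number being a term of the model, and a gene was called where its Benjamini-Hochberg adjusted p over 14455 tested genes was under 0.05. Both classes held more genes that fell than genes that rose. Of the 18 cytosolic synthetases 9 were lower, 3 higher and 6 not called (median log2 fold change -0.16). Of the 15 mitochondrial synthetases 8 were lower, 4 higher and 3 not called (median -0.23). Of all tested genes 63.0% were called, 31.2% lower and 31.8% higher, with a median of 0.01. In such bulk samples fewer cells of a type and less RNA per cell cannot be told apart.

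**Figure D1:**
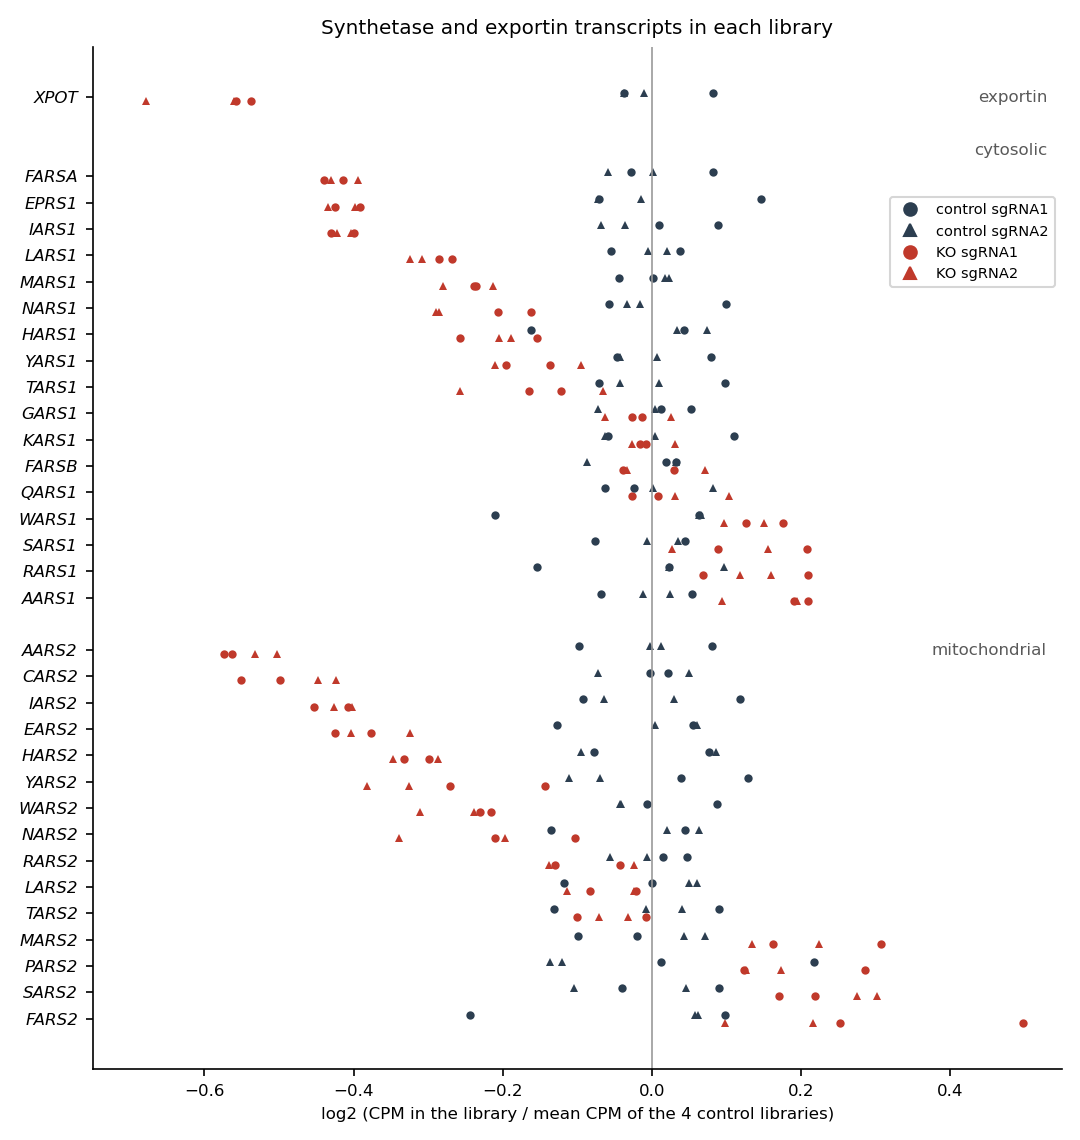
CPM of each tested gene in each library, as log2 of the ratio to the mean of the 4 control libraries (VARS1, with 2 to 14 counts per library, is left out); circles are sgRNA1, triangles sgRNA2, dark points control and red points KO. XPOT and the genes at the top of each class have all 4 KO libraries to the left of all 4 control libraries, while SARS2, MARS2 and AARS1 have them to the right.

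The share called varied with abundance, so members were also read beside genes of like level. The median log2 fold change of all tested genes was -0.03 at 16 to 64 CPM, -0.06 at 64 to 256 CPM and -0.11 at 256 CPM or more. All 6 members of 256 CPM or more (EPRS1, IARS1, LARS1, TARS1, IARS2 and XPOT) were called lower, where all genes of that level were lower in 49.2% and higher in 21.9%. Of the 13 cytosolic synthetases of 64 to 256 CPM 5 were lower and 3 higher, and of the 4 mitochondrial ones 3 were lower and 0 higher, beside 43.0% and 27.8% of all genes there. Of the 8 mitochondrial synthetases of 16 to 64 CPM 4 were lower and 2 higher, beside 37.0% and 30.3%. FARS2 and PARS2, of 4 to 16 CPM, were both higher, a level at which 34.7% of all genes were higher and 25.7% lower.

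XPOT, at chr12:64404392-64451125 on the plus strand, had the largest fall of the members that were called. It was at 276, 280.1, 276 and 254 CPM in the KO libraries and at 430.3, 396, 404 and 396 CPM in the control libraries, in the order sgRNA1 replicates 1 and 2, then sgRNA2 replicates 1 and 2. Every KO library was below every control library. The log2 fold change was -0.59 ± 0.043 (SE), with an adjusted p of 3.59e-10 by edgeR, and the mean fell by 33.2%. Of the 636 genes of 256 CPM or more it had the rank 22 from the lowest fold change.

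The enzymes of the multi-synthetase complex were read next. Of the 7 listed, 4 were lower (EPRS1, IARS1, LARS1 and MARS1), 1 was higher (RARS1), and KARS1 and QARS1 were not called. At these levels 43.0% (64 to 256 CPM) to 49.2% (256 CPM or more) of all genes were lower, so the count for the complex was near the background. EPRS1, at chr1:219968600-220046505 and the enzyme that charges both glutamate and proline tRNAs, was at 398, 408, 406 and 396 CPM in KO and at 591, 509, 509 and 529 CPM in control libraries. IARS1, for isoleucine, at chr9:92210207-92293697, was at 381, 389, 388 and 383 CPM in KO and at 546, 517, 489.9 and 501 CPM in control libraries. LARS1, for leucine, at chr5:146113034-146182650, was at 432, 437, 426 and 421 CPM in KO and at 541, 507, 525 and 534 CPM in control libraries. In these genes the KO libraries lay within a narrow band below all control libraries.

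By edgeR, EPRS1 changed by -0.41 ± 0.048 on the log2 scale (SE, adjusted p = 2.60e-07), IARS1 by -0.41 ± 0.043 (adjusted p = 5.33e-08) and LARS1 by -0.30 ± 0.042 (adjusted p = 3.48e-06). MARS1, for methionine, fell from 199 to 208 CPM in control to 169 to 177 CPM in KO libraries, with a log2 fold change of -0.25 ± 0.040 and an adjusted p of 2.25e-05. Of its exonic bases 12.4% are overlapped on the other strand by genes that include DDIT3, and no source used here gives the strand setting of the counting. RARS1, for arginine, went the other way, with a log2 fold change of 0.13 ± 0.049 and an adjusted p of 0.0298, and its groups overlapped (136 to 149.7 CPM in KO, 116 to 139 CPM in control). KARS1 and QARS1, for lysine and glutamine, were not called, at -0.01 ± 0.045 and 0.03 ± 0.041.

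Summed over the 7 enzymes of the complex, CPM were 1912 ± 12.9 in KO and 2286 ± 86.8 in control libraries (SD, n = 4), 16.3% lower. The 11 tested cytosolic synthetases outside it summed to 1731 ± 55.6 and 1833 ± 73.2 CPM, 5.57% lower, and their groups overlapped (1658 to 1779 in KO, 1761 to 1925 in control). The complex as listed here thus held the larger part of the cytosolic difference, and the sums carry no test.

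The scaffolds AIMP1 and EEF1E1 were also lower. AIMP1 was at 77.7 ± 5.34 CPM in KO and 93.5 ± 5.39 CPM in control libraries (SD, n = 4), with a log2 fold change of -0.28 ± 0.045 (SE) and an adjusted p of 2.11e-05 by edgeR. EEF1E1 had a log2 fold change of -0.35 ± 0.062 and an adjusted p of 5.08e-05. AIMP2 was not called, at -0.09 ± 0.057 with an adjusted p of 0.178.

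Among the cytosolic synthetases outside the complex that were called, FARSA fell most. FARSA and FARSB encode the alpha and beta subunits of the phenylalanine enzyme. FARSA was at 101, 99.5, 103 and 100.1 CPM in KO and at 143, 132, 129 and 135 CPM in control libraries, a difference of -0.42 ± 0.044 on the log2 scale (SE, adjusted p = 5.79e-08 by edgeR). FARSB was at 120.1, 126, 129.7 and 121 CPM in KO and at 126, 125, 116 and 126 CPM in control libraries, with a log2 fold change of 0.01 ± 0.046 and an adjusted p of 0.854. So the subunits of this enzyme parted: the KO libraries were below all controls for FARSA and interleaved with them for FARSB. The CPM ratio of FARSA to FARSB was 0.790 to 0.842 in KO and 1.06 to 1.13 in control libraries, a comparison chosen after the values were seen and given without a test.

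Other cytosolic enzymes moved less. NARS1, for asparagine, was at 159 to 174 CPM in KO and 187 to 208 CPM in control libraries, at -0.24 ± 0.043 on the log2 scale (SE, adjusted p = 4.78e-05 by edgeR). YARS1, for tyrosine, was at 196 to 212 CPM in KO and 219 to 239 CPM in control libraries, at -0.16 ± 0.044 (adjusted p = 0.00345). Both showed no overlap of the groups, whereas HARS1, for histidine, overlapped slightly, at 101 to 108 CPM in KO and 108 to 127 CPM in control libraries. HARS1 had a log2 fold change of -0.22 ± 0.048 and an adjusted p of 6.07e-04. TARS1, for threonine, also overlapped, at 333 to 380.2 CPM in KO and 379 to 426 CPM in control libraries, with -0.15 ± 0.049 and an adjusted p of 0.00987. Without KO sgRNA2 replicate 2, TARS1 was at -0.12 with an adjusted p of 0.0586.

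AARS1, for alanine, at chr16:70252298-70289506, was higher in KO. It was at 169, 167, 167 and 156 CPM in KO and at 152, 139, 145 and 148 CPM in control libraries, and the groups did not overlap. Its log2 fold change was 0.16 ± 0.044 (SE), with an adjusted p of 0.00261 by edgeR. SARS1, for serine, was higher by 0.11 ± 0.046 (adjusted p = 0.0377), with overlapping groups (190.4 to 216 CPM in KO, 177 to 193 CPM in control). WARS1, for tryptophan, was not called, at 0.11 ± 0.052 with an adjusted p of 0.0662, although its KO libraries (79.99 to 84.5 CPM) lay above its control libraries (64.7 to 78.3 CPM). WARS1 was called in 3 of 17 alternatives: at 0.15 with library totals alone, at 0.12 with the stricter filter and at 0.21 after thinning to the smallest library. GARS1, for glycine, was not called, at -0.02 ± 0.042.

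The calls of RARS1 and SARS1 did not hold in every subset of 7 libraries. With the shallowest library, control sgRNA1 replicate 2, left out, RARS1 was at 0.08 with an adjusted p of 0.113 and SARS1 at 0.08 with an adjusted p of 0.125. AARS1 was then the only cytosolic synthetase called higher. The same count of 1 was found without KO sgRNA1 replicate 2 and without control sgRNA2 replicate 1.

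In the mitochondrial class AARS2 and CARS2, for alanine and cysteine, fell most. AARS2, at chr6:44298731-44313347, was at 69.1, 68.6, 72.1 and 70.7 CPM in KO and at 95.5, 108, 102 and 103 CPM in control libraries. Its log2 fold change was -0.53 ± 0.047 (SE), with an adjusted p of 4.83e-09 by edgeR. CARS2, at chr13:110641410-110713522, was at 63.4, 65.7, 68.1 and 69.3 CPM in KO and at 92.7, 94.3, 96.1 and 88.3 CPM in control libraries, with a log2 fold change of -0.48 ± 0.048 and an adjusted p of 3.09e-08. In both genes every KO library was below every control library.

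IARS2, at chr1:220094132-220148041, is the most abundant gene of the class. It was at 283, 275, 279.8 and 284 CPM in KO and at 408, 352, 359.5 and 384 CPM in control libraries, a difference of -0.43 ± 0.047 on the log2 scale (SE, adjusted p = 1.15e-07 by edgeR). EARS2, which charges glutamate, was at 67.9, 70.3, 69.0 and 72.8 CPM in KO and at 94.8, 83.5, 91.4 and 95.1 CPM in control libraries, with -0.39 ± 0.048 and an adjusted p of 5.06e-07. Neither gene showed overlap of the groups.

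HARS2, YARS2, WARS2 and NARS2, for histidine, tyrosine, tryptophan and asparagine, were lower by smaller amounts. HARS2 had a log2 fold change of -0.31 ± 0.058 (SE), YARS2 of -0.27 ± 0.050, WARS2 of -0.24 ± 0.054 and NARS2 of -0.23 ± 0.061, with adjusted p from 8.64e-05 to 0.00214 by edgeR. Of these, NARS2 had overlapping groups (34.6 to 40.8 CPM in KO, 39.9 to 45.8 CPM in control). LARS2, RARS2 and TARS2, for leucine, arginine and threonine, were not called, at -0.08 ± 0.052, -0.08 ± 0.049 and -0.07 ± 0.050.

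The 4 mitochondrial synthetases that rose were among the less abundant. SARS2, for serine, was at 35.1, 36.2, 38.4 and 37.7 CPM in KO and at 30.3, 33.1, 32.2 and 28.98 CPM in control libraries, a difference of 0.26 ± 0.061 on the log2 scale (SE, adjusted p = 9.52e-04 by edgeR). Its groups did not overlap, but 46.2% of its exonic bases are shared with another gene model, AC011455.2, on the same strand in GENCODE v29, and whether that model was in the annotation used for counting is not known. MARS2, for methionine, was at 42.9, 38.8, 40.5 and 38.0 CPM in KO and at 34.2, 32.3, 35.7 and 36.4 CPM in control libraries, with 0.20 ± 0.061 and an adjusted p of 0.00819. MARS2 too showed no overlap of the groups, but without KO sgRNA1 replicate 1 it was at 0.15 with an adjusted p of 0.0572.

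FARS2 and PARS2, for phenylalanine and proline, were called higher on lower counts. FARS2 was at 13.8, 16.3, 12.4 and 13.4 CPM in KO and at 9.78, 12.4, 12.1 and 12.0 CPM in control libraries, with a log2 fold change of 0.27 ± 0.11 (SE) and an adjusted p of 0.0311 by edgeR. PARS2 was at 14.1, 15.8, 14.2 and 14.6 CPM in KO and at 13.1, 15.1, 11.9 and 11.8 CPM in control libraries, with 0.21 ± 0.089 and an adjusted p of 0.0447. The groups overlapped in both. Without control sgRNA1 replicate 1, in which FARS2 was lowest, FARS2 was at 0.13 with an adjusted p of 0.303 and PARS2 at 0.20 with an adjusted p of 0.0956. Without KO sgRNA1 replicate 2, in which both were highest, they were at 0.19 and 0.18 with adjusted p of 0.127 and 0.118.

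Counted by overlap of the 4 and 4 libraries in place of the test, 7 cytosolic and 7 mitochondrial synthetases had every KO library below every control library, and 2 of each class had it above. Over all tested genes these shares were 25.6% below and 27.3% above.

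The 2 guide numbers were then read apart, each by a contrast of 2 KO with 2 control libraries that used the spread of all 4 groups. With the targets of the control guides not given, the label number alone matches control to KO libraries. Within sgRNA1, 7 cytosolic synthetases were lower and 2 higher, and 7 mitochondrial were lower and 2 higher, where 47.6% of all tested genes were called, 23.3% lower and 24.3% higher. Within sgRNA2, 7 cytosolic were lower and 0 higher, and 8 mitochondrial were lower and 1 higher, where 51.2% were called, 25.4% lower and 25.7% higher. XPOT was lower in both, at -0.58 ± 0.064 and -0.59 ± 0.063 (SE).

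The genes called lower within each guide number were EPRS1, FARSA, IARS1, LARS1, MARS1 and NARS1 among the 18 cytosolic, and AARS2, CARS2, EARS2, IARS2, HARS2, YARS2 and WARS2 among the 15 mitochondrial synthetases. Of all tested genes 20.0% were called lower in both and 20.3% higher in both. No synthetase was called higher in both. YARS1 was called lower within sgRNA1 only, and HARS1 and NARS2 within sgRNA2 only, and the difference between guide numbers was not called for any of them. Of the higher genes, AARS1 and RARS1 passed within sgRNA1, as did FARS2 and MARS2, whereas SARS2 passed within sgRNA2. Some of these counts moved with a library: without KO sgRNA1 replicate 1 the mitochondrial genes lower within sgRNA1 were 4, and without control sgRNA2 replicate 1 those lower within sgRNA2 were 5. Cytosolic genes higher within sgRNA1 were 0 without KO sgRNA1 replicate 2 or without control sgRNA1 replicate 2, and 4 without control sgRNA1 replicate 1.

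**Figure D2:**
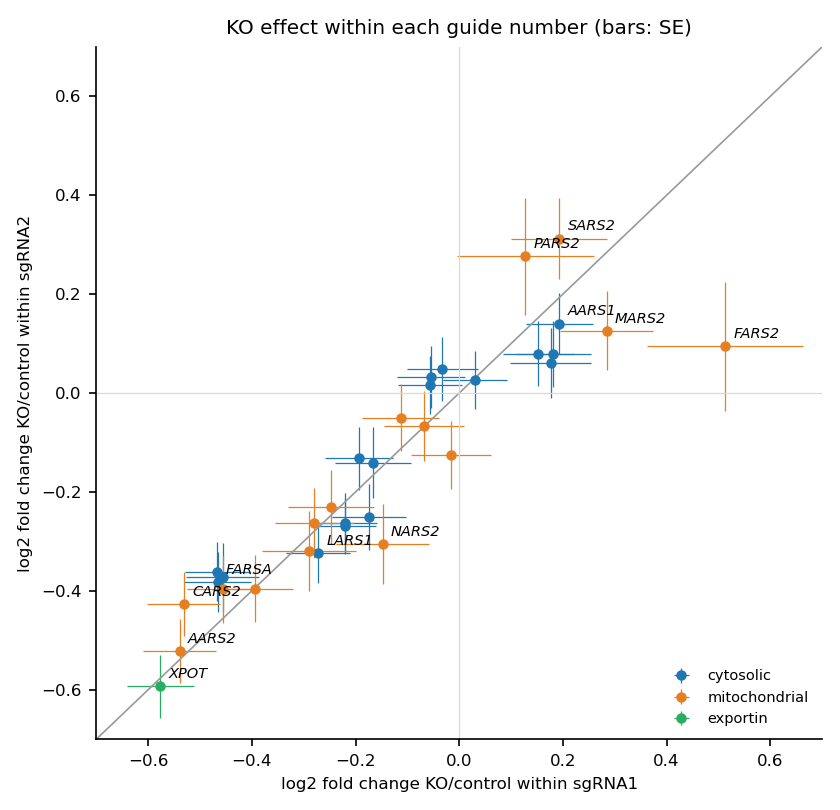
Log2 fold change of KO against control within sgRNA1 (x axis) and within sgRNA2 (y axis) for each tested gene other than VARS1, with bars of 1 SE; the grey diagonal marks equal effects. XPOT and 13 synthetases lie in the lower left quadrant with calls on both axes, and FARS2 lies farthest from the diagonal.

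The difference of the KO effect between guide numbers was called for 0 of the 34 members by edgeR, with 0 at an unadjusted p under 0.05, and for 0 by DESeq2. Over all tested genes 0% were called and 638 had an unadjusted p under 0.05. The largest differences were 0.30 ± 0.79 for VARS1, with its few counts, and -0.42 ± 0.20 for FARS2 (sgRNA2 minus sgRNA1, SE). Between the guide numbers within the control arm 0 members were called by edgeR, with 0 at an unadjusted p under 0.05, and 0 by DESeq2, where 0.0277% of all genes were called by edgeR. The KO arm gave 0 members by the same count, with 0 at an unadjusted p under 0.05 and 0 by DESeq2, beside 0% of all genes. By edgeR 1192 of all tested genes (8.25%) had an unadjusted p under 0.05 in the control arm, and 613 (4.24%) in the KO arm. Log2 CPM of the 2 control sgRNA1 libraries correlated at 0.984, and those of each other group at 0.994 to 0.995.

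Cytosolic and mitochondrial enzymes were compared as class sums and as pairs for the same amino acid. The 18 cytosolic synthetases summed to 3566 to 3698 CPM in KO and 3970 to 4328 CPM in control libraries, a fall in the mean of 11.6%. The 15 mitochondrial synthetases summed to 937 to 947 CPM in KO and 1121 to 1175 CPM in control libraries, a fall of 17.6%. The ratio of the sums was 3.76 to 3.94 in KO and 3.54 to 3.68 in control libraries, higher in every KO library. A few abundant genes set these sums: EPRS1, IARS1 and LARS1 held 75.4% of the net cytosolic difference, and IARS2 held 47.4% of the mitochondrial one.

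**Figure D3:**
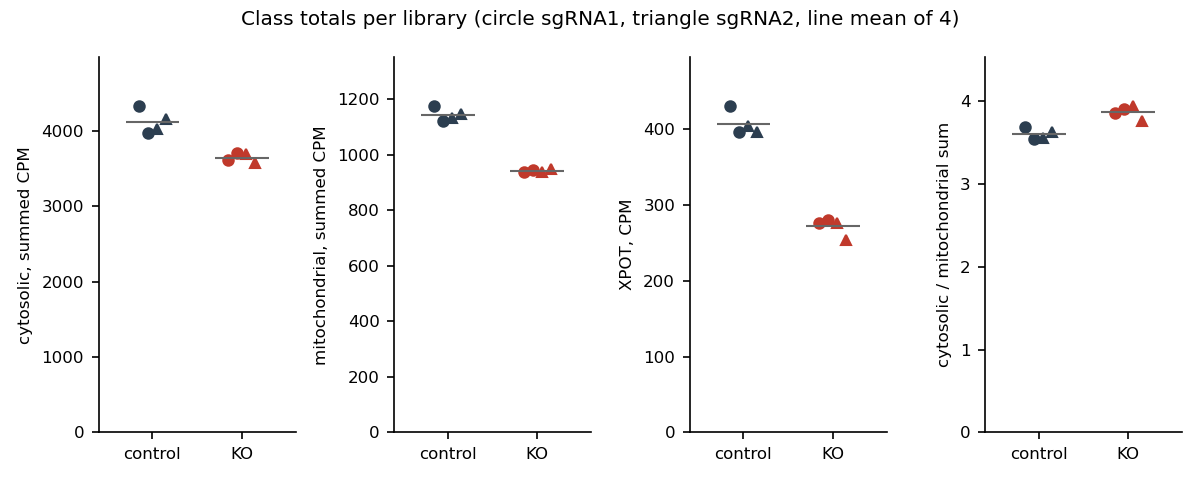
Summed CPM of the cytosolic and mitochondrial synthetases, CPM of XPOT, and the ratio of the 2 sums in each library (y axes, from 0), by arm (x axis); circles are sgRNA1, triangles sgRNA2 and lines the mean of 4. The 4 KO libraries lie below the controls in the first 3 panels and above them (3.76 to 3.94 against 3.54 to 3.68) in the last.

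The ratio of each cytosolic gene to its mitochondrial counterpart was taken in each library, over 15 pairs in which EPRS1 was set against EARS2 and PARS2, and FARSA and FARSB each against FARS2. In 8 pairs the KO and control ratios overlapped. Among single tested genes 25.6% had every KO library below every control library and 27.3% above. The share among other gene pairs was not taken, so the count is not read as a trait of these pairs. The ratio was higher in every KO library for AARS1 to AARS2, WARS1 to WARS2 and RARS1 to RARS2, by 0.71, 0.39 and 0.22 on the log2 scale. It was lower in every KO library for FARSA to FARS2, EPRS1 to PARS2, MARS1 to MARS2 and LARS1 to LARS2, with differences of -0.69, -0.59, -0.45 and -0.24.

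Of the ratios that were higher in KO, that of the alanine pair differed most. Its log2 ratio of CPM was 1.23 ± 0.068 in KO and 0.52 ± 0.12 in control libraries (SD, n = 4), since AARS1 was higher and AARS2 lower. The isoleucine pair shifted together: its log2 ratio was 0.46 ± 0.036 in KO and 0.45 ± 0.072 in control libraries, while both genes fell. The methionine pair went the other way from alanine, with MARS1 lower and MARS2 higher, and a log2 ratio of 2.12 ± 0.092 against 2.57 ± 0.047. These ratios are descriptions without a test.

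**Figure D4:**
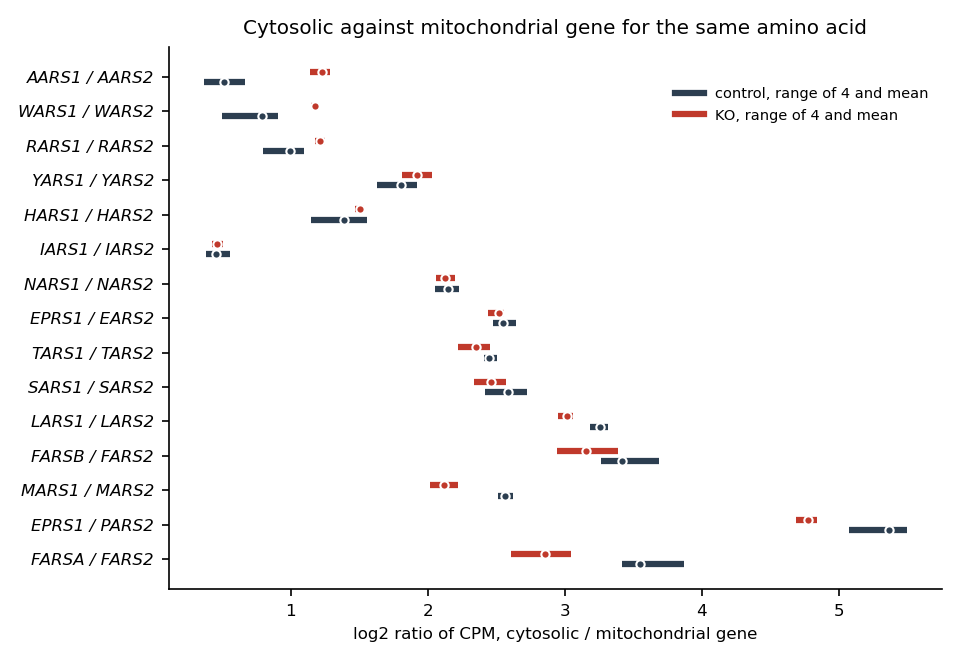
Log2 ratio of CPM of the cytosolic to the mitochondrial gene (x axis) for 15 pairs (y axis); bars span the 4 libraries of an arm and points are their mean, dark for control and red for KO. The bars do not overlap for 7 pairs, from alanine at the top (0.71 higher in KO) to FARSA against FARS2 at the bottom (0.69 lower).

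The members were also read by the ATF4 target list, which holds 12 of the tested members, XPOT and 11 cytosolic synthetases. Of these 12, 8 were lower and 2 higher (median log2 fold change -0.20), beside 31.2% lower and 31.8% higher over all tested genes. Among the 7 cytosolic synthetases not on the list 2 were lower and 1 higher, with a median of -0.01. The 2 sets differ in abundance. EPRS1, IARS1, LARS1, TARS1 and XPOT of the list were at 256 CPM or more, where 49.2% of all genes were lower. The 7 genes not on the list were all below that level, so the sets are not a like comparison. Of the members that hold the element's core in the promoter, TARS1, IARS1, MARS1, NARS1 and YARS2 were lower and AARS1 was higher, while CARS1 was not tested. Of the 187 tested genes with the core 32.1% were lower and 30.5% higher, with a median of -0.04, close to the shares over all tested genes.

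In the list of integrated stress response and amino-acid supply genes more were higher than lower. Of its 16 tested genes 9 were higher and 3 lower (median log2 fold change 0.17), beside 31.8% and 31.2% of all tested genes. ATF4 was at 434 ± 16.02 CPM in KO and 396 ± 12.6 CPM in control libraries (SD, n = 4), a difference of 0.13 ± 0.044 on the log2 scale (SE, adjusted p = 0.0145 by edgeR). SESN2, an inhibitor of mTORC1 that senses leucine, was at 83.2 ± 5.64 and 38.3 ± 2.76 CPM, with 1.10 ± 0.060 and an adjusted p of 3.13e-12. EIF2AK2, a kinase of the initiation factor eIF2, was lower by -0.36 ± 0.051 (adjusted p = 3.07e-06). Of genes named after their values were seen, ASNS, the asparagine synthetase that is not a tRNA enzyme, was higher by 0.62 ± 0.057 and DDIT3, a transcription factor of this response, by 0.79 ± 0.11. PHGDH, of serine synthesis, was lower at -0.26 ± 0.043, EIF2AK4, the kinase that senses uncharged tRNA, was lower at -0.36 ± 0.052, and TRIB3 was not called at -0.18 ± 0.11.

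**Figure D5:**
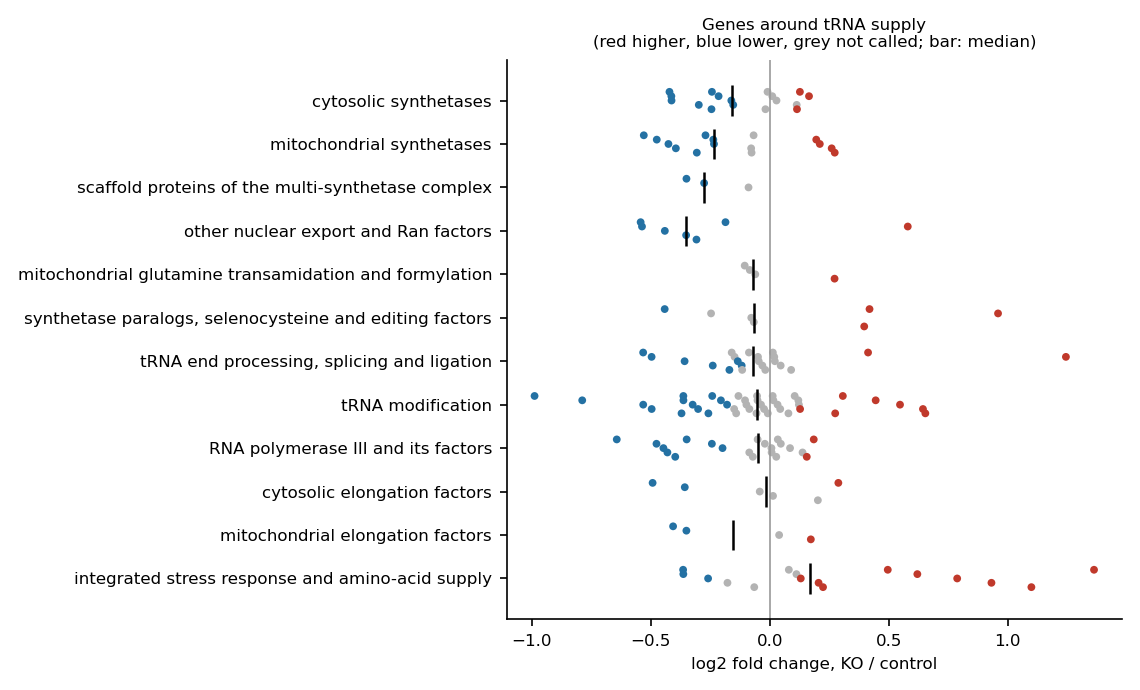
Log2 fold change of KO against control (x axis) for every tested gene other than VARS1 of 12 lists around tRNA supply (y axis); red points were called higher, blue lower and grey neither, and bars are list medians. The bars lie left of 0 in each list except the integrated stress response and amino-acid supply genes (0.17). Medians of all tested genes were also below 0 at 16 to 64, 64 to 256 and 256 CPM or more (-0.03, -0.06 and -0.11). A bar slightly left of 0 is thus no trait of its list.

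The export and Ran factors beside XPOT were mostly lower. Of 7 such genes 6 were lower and 1 higher (median log2 fold change -0.35), where all genes of 64 to 256 CPM were lower in 43.0% and all of 256 CPM or more in 49.2%. RANBP1, a cofactor of Ran in the cytoplasm, was at 270.4 ± 16.5 CPM in KO and 391.8 ± 15.4 CPM in control libraries (SD, n = 4), with -0.54 ± 0.047 (SE) and an adjusted p of 3.71e-09 by edgeR. NXF1, the general mRNA exporter, was the gene that rose, at 156 ± 3.59 and 106 ± 9.55 CPM, with 0.58 ± 0.052 and an adjusted p of 5.76e-09.

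The steps that make a tRNA before it is charged held calls in both directions, and the shares called were read beside 31.2% lower and 31.8% higher over all tested genes. Of 21 tested genes of RNA polymerase III and its factors 8 were lower and 2 higher, and of the higher genes GTF3C3, a subunit of the factor TFIIIC, had the smallest p (0.18 ± 0.043, SE). Of 22 genes of end processing, splicing and ligation 7 were lower and 2 higher, led by POP7 (-0.53 ± 0.059) and POP4 (0.41 ± 0.052), both protein subunits of RNase P. Of 40 tRNA modification genes 13 were lower and 7 higher, and ADAT2 and TRMT10A had the smallest p in each direction. The lower shares of these processing and modification lists were near that of all tested genes. That of the polymerase III list lay between it and the 43.0% of all genes of 64 to 256 CPM. Higher calls, at 2 of 21, 2 of 22 and 7 of 40 genes, were below the 31.8% of all tested genes in each list. These differences in share were not tested. ADAT2, the catalytic subunit of the adenosine deaminase that makes inosine in anticodons, was at 29.8 ± 2.08 CPM in KO and 59.7 ± 4.75 CPM in control libraries (SD, n = 4), a log2 fold change of -0.99 ± 0.061 with an adjusted p of 2.40e-11 by edgeR. TRMT10A, a guanosine methyltransferase, was at 0.64 ± 0.062.

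Genes that act beside the synthetases were few, and their calls were read beside the same shares of all tested genes. Of 4 genes of mitochondrial glutamine transamidation and formylation 1 was higher, QRSL1, a subunit of the transamidase (0.27 ± 0.060, SE), and 0 were lower by edgeR, while 3 were not called. Of 7 paralogs, selenocysteine and editing factors 3 were higher and 1 lower. PSTK, the kinase that acts on serine-charged selenocysteine tRNA, was at 0.96 ± 0.096, and SEPHS1 at -0.44 ± 0.048.

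Elongation factors take charged tRNAs to the ribosome or move them on it, and genes were listed here by that name. Among those listed, 2 of 6 cytosolic genes were lower and 1 higher, a lower share near the 31.2% of all tested genes. EEF1B2, a subunit of the exchange factor that recharges eEF1A with GTP, was at -0.49 ± 0.049 (SE), and EEF1A2, a tissue-restricted form of eEF1A, at 0.29 ± 0.081. Of 4 mitochondrial ones 2 were lower and 1 higher. TUFM, which brings charged tRNAs to the mitochondrial ribosome, was at -0.35 ± 0.042. GFM2, listed by its name alone, was at 0.17 ± 0.045.

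Several members start next to a gene on the opposite strand, and such neighbours, taken by position with starts within 1000 bases, did not share 1 direction. HARS1 and HARS2 start 85 bases apart and were both lower. Their exons overlap: 8.38% of the exonic bases of HARS1 and 11.7% of those of HARS2 are overlapped on the other strand, by genes that include the other of the pair. With the strand setting of the counting not given, the 2 values may not be independent. SARS2 starts 181 bases from MRPS12, a mitochondrial ribosomal protein gene, and was higher by 0.26 where MRPS12 was at -0.43 ± 0.062 (SE, adjusted p = 3.78e-06 by edgeR). KARS1 starts 108 bases from TERF2IP, and KARS1 was at -0.01 where TERF2IP was at 0.63 ± 0.052 (adjusted p = 1.99e-09). WARS1 starts 158 bases from WDR25, which was at 0.76 ± 0.14 (adjusted p = 1.05e-04) on a mean of 5.20 CPM. FARS2 starts 57 bases from LYRM4, which was not called at -0.16 ± 0.076. EARS2 starts 377 bases from UBFD1, at -0.13 ± 0.048, and RARS2 starts 148 bases from ORC3, which like RARS2 was not called. The limit given for HARS1 and HARS2 also holds for other members. Genes that include the neighbour overlap, on the other strand, 10.8% of the exonic bases of SARS2 and 10.6% of those of WARS1. The same overlap is 6.46% for EARS2 and 4.33% for KARS1.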

How the data were processed

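Libraries were made with a stranded TruSeq mRNA kit and read as 80 bp pairs, per the labels' protocols. The values used are unnormalised read counts per gene, deposited by the authors and made with featureCounts on hg38 per the submitters' processing notes. No source used here gives the aligner, annotation release or strand setting, so reads of overlapping or similar genes may have been shared or dropped. The deposited gene length served only for CPM per kilobase.

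Of 28395 entries 459 without a gene ID (0.0284 to 0.0425% of counts) were left out. Symbols and positions come from RefSeq (GRCh38.p14), exon overlaps from GENCODE v29. filterByExpr on the 4 groups (minimum count 10, total 15) kept 14455 genes. The KO comparison used edgeR 4.0.16 (TMM, quasi-likelihood F test) with a guide term and 5 residual degrees of freedom, and other contrasts used 4 group means with 4. Genes were called at a Benjamini-Hochberg adjusted p under 0.05, taken over every tested gene. Library depth limits precision most for genes under 16 CPM, and errors cover these samples only.

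Named genes were all members, the scaffolds, ATF4 and, from each other list, the called gene with the smallest p in each direction; others are said to be chosen later or by position. The values of 1 named gene and 1 marker gene are not reported here; all counts of calls still include them. The members and lists were chosen with earlier results of these data known. Alternatives were other size factors, DESeq2 1.42.0, limma 3.58.1 voom, other filters, other designs, leaving out each library and thinning. Scripts were tested on simulated data.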

Additional observations from a re-analysis of the deposited data

Results flagged for a closer look

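In the 68 sets of 4 libraries (34 members in each arm) 5 held a library far from the other 3 by Dixon's criterion, where chance alone gives about 5% of such sets. AARS1 was at 156 CPM in KO sgRNA2 replicate 2 and at 167 to 169 CPM in the other KO libraries. XPOT was at 254 CPM in the same library and at 276 to 280.1 CPM in the others. FARSB was at 116 CPM in control sgRNA2 replicate 1 and at 125 to 126 CPM in the other control libraries. WARS1 was at 64.7 CPM in control sgRNA1 replicate 2, the shallowest library, and at 78.1 to 78.3 CPM in the others. FARS2 was at 9.78 CPM in control sgRNA1 replicate 1 and at 12.0 to 12.4 CPM in the others.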

How the results depend on the processing

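Over 17 alternatives 14 of the 18 lower calls and 2 of the 7 higher calls (AARS1 and SARS2) passed in every one. TARS1, YARS1, NARS2 and WARS2 each lost the lower call in 1 alternative. Members called higher were 1 cytosolic with no filter, 2 mitochondrial with DESeq2 and 2 mitochondrial after thinning to the smallest library, and thinning took the cytosolic median to -0.11. Within sgRNA1, higher cytosolic genes numbered 4 with library totals alone and 1 with no filter, and higher mitochondrial genes 0 after thinning. Within sgRNA2, higher cytosolic genes numbered 1 with DESeq2 size factors, with library totals and with the filter of CPM of at least 1 in 4 libraries, and higher mitochondrial genes 2 with library totals and 0 after thinning.

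Leaving out each library in turn gave 1 to 3 cytosolic and 2 to 4 mitochondrial genes higher, with 8 to 9 and 8 lower, and a cytosolic median of -0.20 to -0.12. Within sgRNA1 it gave 0 to 4 cytosolic and 0 to 2 mitochondrial genes higher, and 4 to 7 mitochondrial genes lower. Within sgRNA2 it gave 0 to 1 cytosolic and 0 to 2 mitochondrial genes higher, and 5 to 8 mitochondrial genes lower. The library left alone in its group is then assumed to vary like the others.

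Sign changes were limited to 4 genes that were not called. With library totals GARS1 was at 0.016 and KARS1 at 0.025, with no filter FARSB was at -0.013, with the CPM filter KARS1 was at 0.0016, and after thinning KARS1 was at 0.034 and TARS2 at 0.0076. Leaving out each library in turn put FARSB between -0.028 and 0.025, below 0 without KO sgRNA1 replicate 2, KO sgRNA2 replicate 1 or control sgRNA2 replicate 1. It put KARS1 between -0.040 and 0.035, above 0 without control sgRNA1 replicate 1. The cause was not tested.

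The correlation of deviations of libraries with the same replicate number was -0.01 for sgRNA1 and 0.05 for sgRNA2 over 11458 genes, so the numbers were not taken to pair samples. With a replicate block 8980 genes were called in place of 9109, 2 cytosolic and 3 mitochondrial members were higher, and SARS1 (0.11, adjusted p = 0.05004) and PARS2 (0.20, adjusted p = 0.0705) were no longer called by edgeR.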
